A study of Sus scrofa with 4 samples.

Results

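The genes of the WNT, Notch and Hippo signalling pathways were described by their peaks of histone H4 lysine 12 lactylation (H4K12la), a chromatin mark formed with lactate-derived acyl groups, in pig liver. Members were the coding genes of the Sscrofa11.1 RefSeq annotation whose symbols belong to these pathways, from WNT ligands to TEAD factors. The rule found 86 genes, 51 of the WNT, 20 of the Notch and 15 of the Hippo pathway. NOTCH1 and JAG2 lie on unplaced scaffolds, which the peak lists do not name, and were not analysed here. The other 84 stand among 16303 named coding genes on chromosomes 1 to 18, X and Y. The livers came from female sows in late gestation, of a group with low (normal) and a group with high bile acid, and the cell type is labelled hepatocytes. Each group has 1 library precipitated with an antibody against H4K12la and 1 input library. Neither labels nor protocols give the number of animals behind a library. With no replicates, a difference between the lists is a difference between 2 libraries.

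WNT ligands bind frizzled receptors and LRP coreceptors, which stops the AXIN and APC complex from destroying beta-catenin and lets it act with TCF and LEF factors on DNA. In the liver this pathway sets the gene programme of hepatocytes around the central vein, and R-spondins strengthen it through LGR receptors. Notch receptors are cut when a neighbouring cell presents a Jagged or Delta ligand. Their inner part joins RBPJ and MAML to switch on HES repressors such as HES1, and in liver this path is known for bile duct formation. The Hippo kinases STK3, STK4, LATS1 and LATS2 hold YAP and TAZ out of the nucleus, where they would act with TEAD factors, and so limit liver size.

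The peaks were those of the authors' caller, 28283 for the high bile acid liver (the high list) and 5735 for the low bile acid liver (the low list). The fold is the enrichment at the peak summit over the local background, with a median of 2.90 in the high and 2.98 in the low list, and q is the caller's own adjusted value against that background. A q under 0.05 was reached by 608 high-list and 13 low-list peaks, and 97.4% of low-list peaks stood at a q of 1. The median peak rested on 9 fragments in the high and 10 in the low library, so single peaks carry a wide counting error. A gene-end peak overlaps the 1 kb on either side of either annotated gene end, a body peak overlaps the gene, and a nearby peak overlaps the gene or the 10 kb beside it. Strand was not used here, so the start of a gene was not told apart from its other end. Ends are called lower and upper by their coordinate. Peaks do not measure expression. Of 12 hepatocyte markers, 8 had a nearby high-list peak, and 2 of them, HNF4A and HP, also a nearby low-list peak, while ALB, APOA1, CYP2E1 and ASGR1 had neither. The 66.7% and 16.7% are near the shares of all genes, 62.8% and 22%. Nearby high-list peaks also stood at 0 of 4 cholangiocyte, 4 of 5 endothelial, 3 of 5 Kupffer and myeloid, 2 of 4 stellate and 2 of 5 lymphocyte markers.

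In the high bile acid liver, 24 of the 84 pathway genes (28.6%) carried a gene-end peak, against 18.4% of all named coding genes. In the low bile acid liver none did, against 3.59%. A count of 0 among 84 allows a share of up to 3.57%, close to that background. By pathway the high-list count was 11 of 51 WNT genes, 8 of 18 Notch genes and 5 of 15 Hippo genes, or 21.6%, 44.4% and 33.3%. These counts moved with the window: the Notch count was 5 (27.8%, background 13%) at 500 bp, and the WNT count 17 (33.3%, background 31.3%) at 3 kb. Body peaks of the high list lay in 51 genes (60.7%, background 45.4%), and nearby peaks at 61 (72.6%, background 62.8%). Low-list body peaks lay in 11 genes (13.1%, background 15.1%) and nearby peaks at 16 (19%, background 22%). For the 84 genes together, the high-list shares thus stood above the background at these settings. They were near it when peaks needed a q under 0.05 or a fold of 4 or more. By pathway, body peaks lay in 52.9% of WNT, 77.8% of Notch and 66.7% of Hippo genes, and nearby peaks at 64.7%, 88.9% and 80%. The WNT share of nearby peaks was near the background. With the high list cut to the length of the low list, body shares were 25.5%, 16.7% and 40% (background 16.1%), the Notch share being near it. The low-list shares of body and nearby peaks were near the background. No pathway gene lies on chromosome X or Y, where few peaks were called. Against autosomal genes alone the backgrounds for gene ends, bodies and nearby peaks were 19.1%, 47% and 65.1% in the high list, and for the low list 3.73%, 15.7% and 22.9%. Within 50 kb all 84 genes had a high-list peak, against 85.6% of all and 88.6% of autosomal genes. A low-list peak lay within 50 kb of 36 (42.9%), against 41.4% and 43%.

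**Figure D1:**
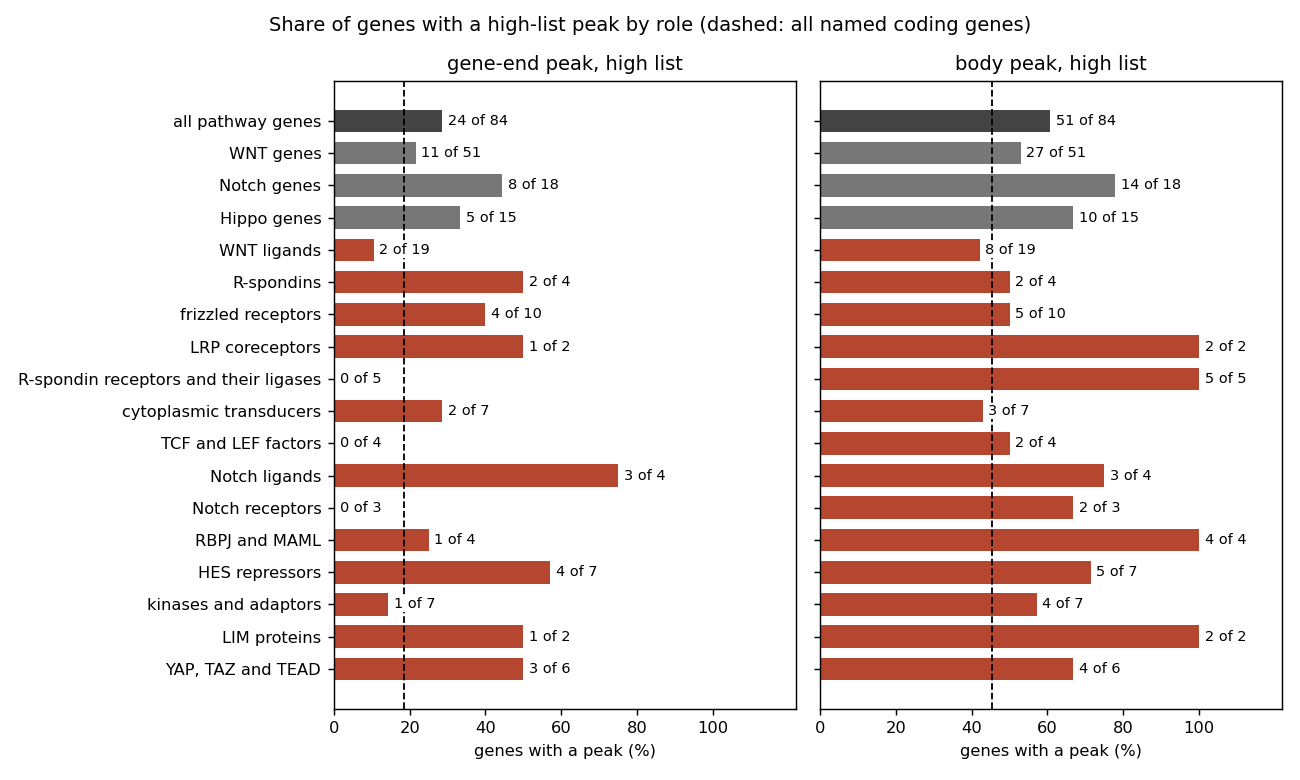
Share of genes with a high-list peak at a gene end (left) or in the gene body (right), in percent, for all pathway genes, each pathway and each role, with the number of genes beside each bar and the share of all named coding genes as a dashed line. Notch ligands (3 of 4) and HES repressors (4 of 7) stand high at gene ends, and WNT ligands (2 of 19) lie under the line.

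The high-list peaks within 10 kb of these genes numbered 159, with folds from 1.91 to 4.79 and a median of 2.92. Of these, 26 lay at gene ends, with a median fold of 3 against 2.94 for the 2970 high-list peaks at the ends of all coding genes. Among the 26, only the LIMD1 peak had a q under 0.05. That is 1 gene of 84 (1.19%), against 0.816% of all genes. With any nearby peak counted, LIMD1, DVL1 and DVL2 had a q under 0.05, or 3.57% against a background of 3.6%. The summits of the 26 lay inside the gene in 13 cases and outside it in 13. The low list held 18 nearby peaks, with folds from 2.31 to 3.93, none with a q under 0.05, which 0.0613% of all genes had. No low-list peak near a pathway gene overlapped a high-list peak, where 1.18% of all genes had such an overlap.

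**Figure D2:**
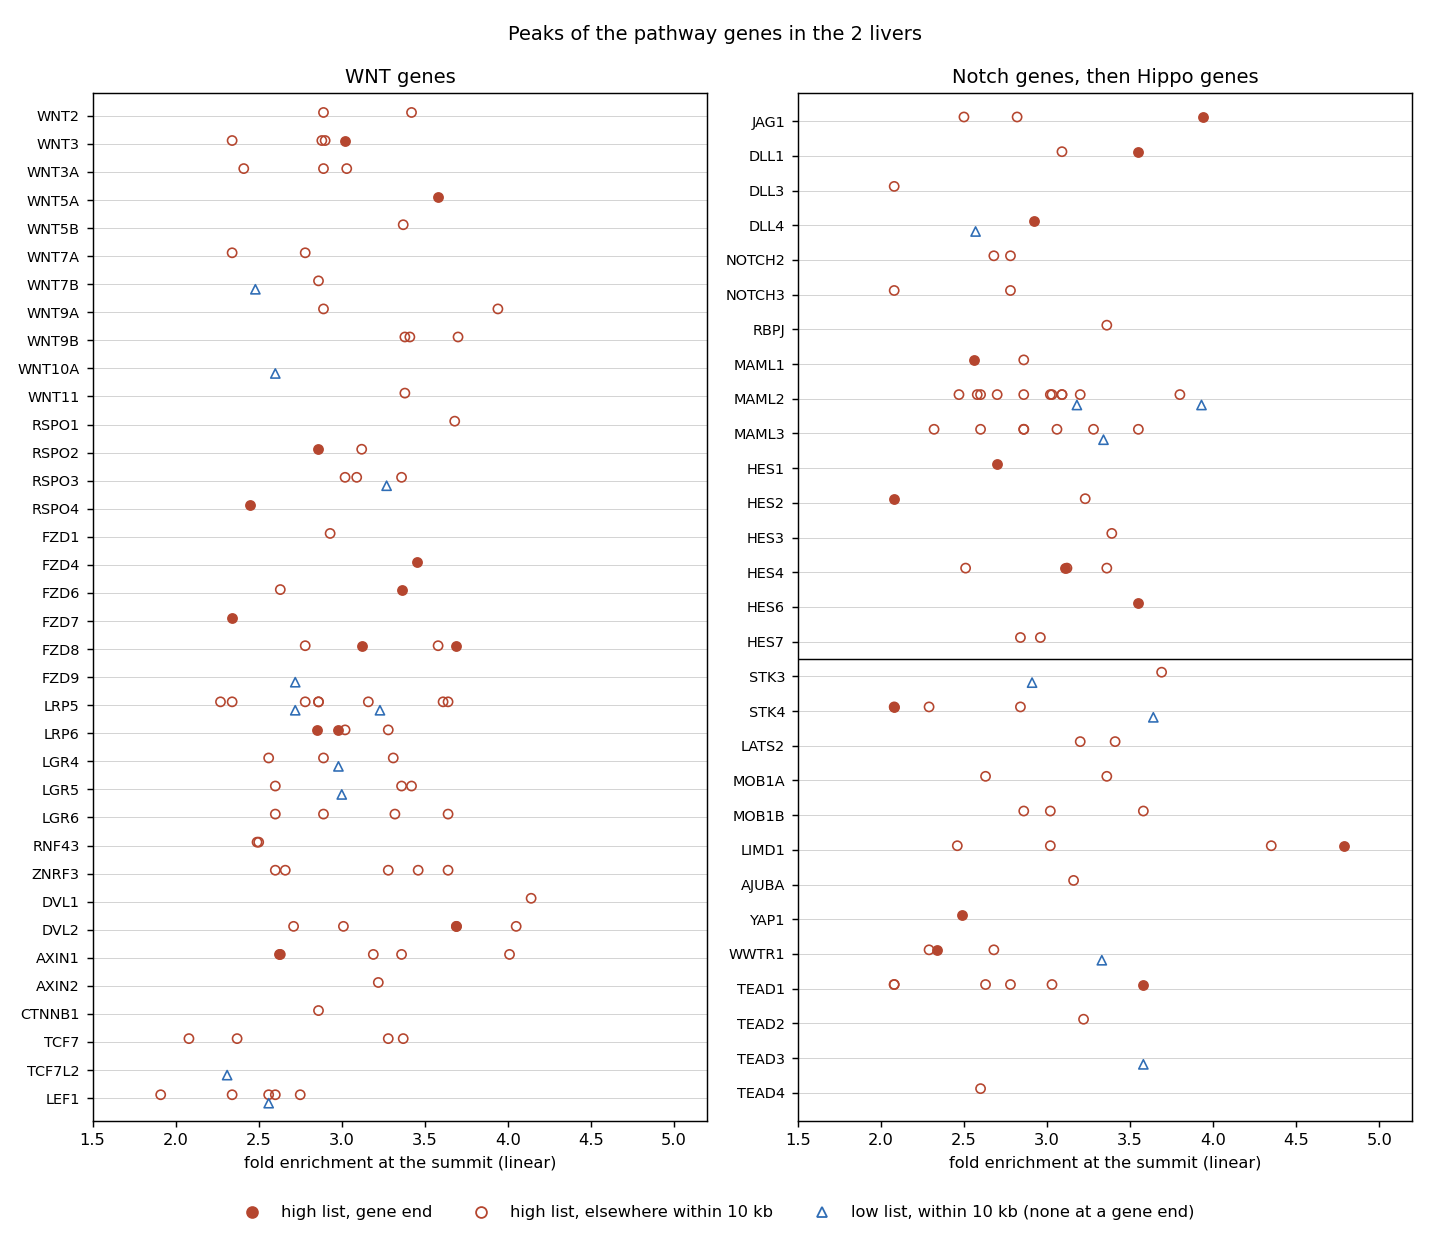
Fold enrichment at the summit (linear axis) of every peak within 10 kb of a pathway gene, 1 row per gene, with circles for the high list (filled at a gene end) and triangles for the low list. The filled circles run from 2.08 (HES2 and STK4) to 4.79 (LIMD1), and no triangle lies at a gene end.

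Among the WNT ligands, the secreted proteins that start the signal, 2 of 19 had a high-list gene-end peak (18.4% of all genes). WNT5A, best known for signalling without beta-catenin, had one 451 bp outside its upper end on chromosome 13 (37367410 to 37367789; fold 3.58, q 0.139, 10 fragments). WNT3 had one 816 bp outside its upper end on chromosome 12, with a fold of 3.02 (q 0.33). Neither had a low-list peak within 10 kb.

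A further 8 ligands had nearby high-list peaks away from their ends (62.8% of all genes had a nearby high-list peak, at an end or not). WNT9A led with a fold of 3.94 (q 0.0735), 8004 bp outside the gene. WNT9B, the next ligand gene after WNT3 on chromosome 12, had 3 peaks with folds of 3.41, 3.38 and 3.70, the last 1227 bp outside its upper end. All 3 also lie inside LOC102167870. WNT9B is secreted by central vein endothelium in mouse liver, as is WNT2, which had folds of up to 3.42 inside the gene. Top folds were 3.38 at WNT11, 3.37 at WNT5B, whose peak also lies at an end of FBXL14 within the gene, and 3.03 at WNT3A. WNT7B had a high-list peak of 2.86 inside the gene and a low-list peak of 2.48 outside it. WNT10A had a low-list peak of fold 2.60 and none in the high list. The 8 ligands WNT1, WNT2B, WNT4, WNT6, WNT8A, WNT8B, WNT10B and WNT16 had no nearby peak at all, as 31.8% of all genes did not.

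R-spondins are secreted proteins that keep WNT receptors on the cell surface. All 4 had a nearby high-list peak (62.8% of all genes). RSPO2 and RSPO4 had one at a gene end (18.4% of all genes), with folds of 2.86 (q 0.326) and 2.45 (q 0.5). RSPO1 had a fold of 3.68 (q 0.139) 3910 bp outside the gene. RSPO3, which central vein endothelium makes, had 3 high-list peaks inside the gene with folds of 3.09, 3.02 and 3.36, and 1 low-list peak of 3.27 there (q 1). The low-list peak of RSPO3 overlapped none of the 3.

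The R-spondin receptors LGR4, LGR5 and LGR6 and the ligases RNF43 and ZNRF3, which remove frizzled receptors from the membrane, had no gene-end peak. Of all named coding genes of 50 to 200 kb, 17.6% had one in the high and 3.74% in the low list. All 5 receptor and ligase genes had high-list peaks in the gene body, as 63.2% of all named coding genes of 50 to 200 kb did. These genes are 63448 to 149328 bp long, and body peaks grow more frequent with length, as shown further on. Top folds were 3.64 at LGR6 (q 0.0735, 13 fragments, 1788 bp outside the gene and inside UBE2T), 3.64 at ZNRF3 (q 0.109), 3.42 at LGR5 and 3.31 at LGR4. RNF43 reached 2.5. LGR4 also had a low-list body peak of fold 2.98, and LGR5 a low-list peak of 3 that lay 4858 bp outside the gene.

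Of the 10 frizzled receptors, which bind WNT at the cell surface, 4 had a high-list gene-end peak (18.4% of all genes). FZD8, a gene of 2811 bp, had 2 of them, with folds of 3.69 (q 0.139) and 3.12 (q 0.232), with 2 more nearby peaks of 3.58 and 2.78. All 4 also lie inside the uncharacterised gene LOC110255709. FZD4 had a fold of 3.45 (q 0.131, 12 fragments) 80 bp outside its upper end, in a stretch that is also an end of LOC106504840. FZD6 had 3.36 (q 0.232) and FZD7 2.34 (q 0.548). FZD9 was the one frizzled gene with a low-list peak, of fold 2.72 inside the gene, and had none in the high list. FZD1 had a single body peak, which also lies inside MTERF1. FZD2, FZD3, FZD5 and FZD10 had no nearby peak, as 31.8% of all genes did not. The coreceptor LRP6 had high-list peaks at both ends, with folds of 2.98 at the lower and 2.85 at the upper end. LRP5 had none at its ends but 8 nearby high-list peaks, the strongest of fold 3.64 inside the gene (q 0.0735), and 2 low-list peaks of 2.72 and 3.23.

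The cytoplasmic transducers held 2 of the 3 genes with a q under 0.05. DVL2, a Dishevelled protein that relays the signal from frizzled, spans 52581687 to 52590266 on chromosome 12 and had 5 nearby high-list peaks. The strongest had a fold of 4.05 (q 0.0478, 12 fragments) and lay 1793 bp inside the upper end. Next to it stood a peak of 1017 bp at the end itself (fold 3.69, q 0.139), which is also an end of the neighbour PHF23. DVL1 had 1 peak of fold 4.14 (q 0.031, 13 fragments), 9462 bp outside the gene and at the ends of CPTP and INTS11. DVL3 had none.

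AXIN1, the scaffold of the destruction complex, had 5 nearby high-list peaks on chromosome 3. The strongest lay 1497 bp outside its lower end (41343239 to 41343703; fold 4.01, q 0.0528), beyond the gene-end window. The one at its upper end, shared with PDIA2, had a fold of 2.62 (q 0.471). AXIN2, a target of beta-catenin that feeds back on the pathway, had 1 peak of 3.22 that lay 9140 bp outside the gene. CTNNB1, which encodes beta-catenin, had a single body peak of 2.86, also inside LOC106505576, and APC had none within 10 kb.

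None of the 4 TCF and LEF genes had a gene-end peak, against 18.4% of all genes in the high and 3.59% in the low list. TCF7 had a fold of 3.37 in its body, and LEF1 had 5 nearby high-list peaks of at most 2.75 and a low-list body peak of 2.56. TCF7L2, a TCF factor well expressed in liver, had 1 low-list body peak of fold 2.31 and no high-list peak within 10 kb. TCF7L1 had no nearby peak in either list.

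Among the Notch ligands, 3 of the 4 measured had a high-list gene-end peak, against 18.4% of all named coding genes. JAG1, the ligand mutated in Alagille syndrome with its lack of bile ducts, spans 19591248 to 19629659 on chromosome 17. Its peak lay 932 bp outside the upper end (19630210 to 19631091; fold 3.94, q 0.0603) on 12 fragments (95% interval 6.20 to 21.0) over 2.30 expected. The Delta ligand gene DLL1 had a fold of 3.55 (q 0.139) 382 bp outside its lower end. DLL4, the Delta ligand of endothelial cells, had 2.92 (q 0.232, 13 fragments) just inside its upper end. DLL4 also had a low-list peak of 2.57, 1816 bp from that end. DLL3 had a single peak of 2.08, 5162 bp outside the gene. JAG1 and DLL1 had no low-list peak within 10 kb.

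The measured Notch receptors had no gene-end peak, against 18.4% of all genes in the high and 3.59% in the low list. NOTCH2 and NOTCH3 had body peaks of at most 2.78 in the high list, and NOTCH4 had none. Of the nuclear partners, MAML1 had a gene-end peak of fold 2.56 (q 0.5), which also lies inside LOC106507308. RBPJ, the DNA-binding protein of the pathway, had 1 body peak of 3.36 (q 0.232). The long coactivator genes MAML2 and MAML3 had 11 and 7 high-list body peaks with top folds of 3.80 and 3.55. MAML2 also had 2 low-list peaks, of 3.18 and 3.93, and MAML3 had 1 of 3.34. The 3.93 was the highest low-list fold of any pathway gene.

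HES genes encode basic helix-loop-helix repressors, and Notch switches on some of them, such as HES1. Of the 7, 4 had a high-list gene-end peak, against 20.2% of all named coding genes under 10 kb. HES6 had the highest fold, 3.55 (q 0.139), 729 bp outside its lower end on chromosome 15. HES4 followed with 3.11 (q 0.242), and HES1, the main Notch target, had 2.70 (q 0.33, 10 fragments) inside its 1896 bp on chromosome 13. HES2 had 2.08 (q 0.711). HES3 and HES7 had body peaks outside the gene-end windows, with top folds of 3.39 and 2.96, and HES5 had none within 10 kb. No HES gene had a low-list peak within 10 kb. HES1 and HES6, of 1896 and 1882 bp, lie wholly within their end windows, so any body peak there is also a gene-end peak, as at HES1.

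The Hippo pathway held the strongest peak of all. LIMD1, a LIM protein that binds LATS kinases and lowers their action on YAP, spans 28730192 to 28811584 on chromosome 13 and had 4 high-list peaks and no low-list peak. The peak at its lower end (28730261 to 28731269) was 1009 bp wide, with a fold of 4.79 (q 0.00484), and ranked 33 by fold among the 28283 high-list peaks. It rested on 14 fragments (95% interval 7.65 to 23.5) over 2.13 expected. A second peak 2461 bp inside the upper end (28808772 to 28809360) had a fold of 4.35 (q 0.031). The 2 between them had folds of 2.46 and 3.02. AJUBA, a related LIM protein, had 1 body peak of 3.16 (q 0.214).

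**Figure D3:**
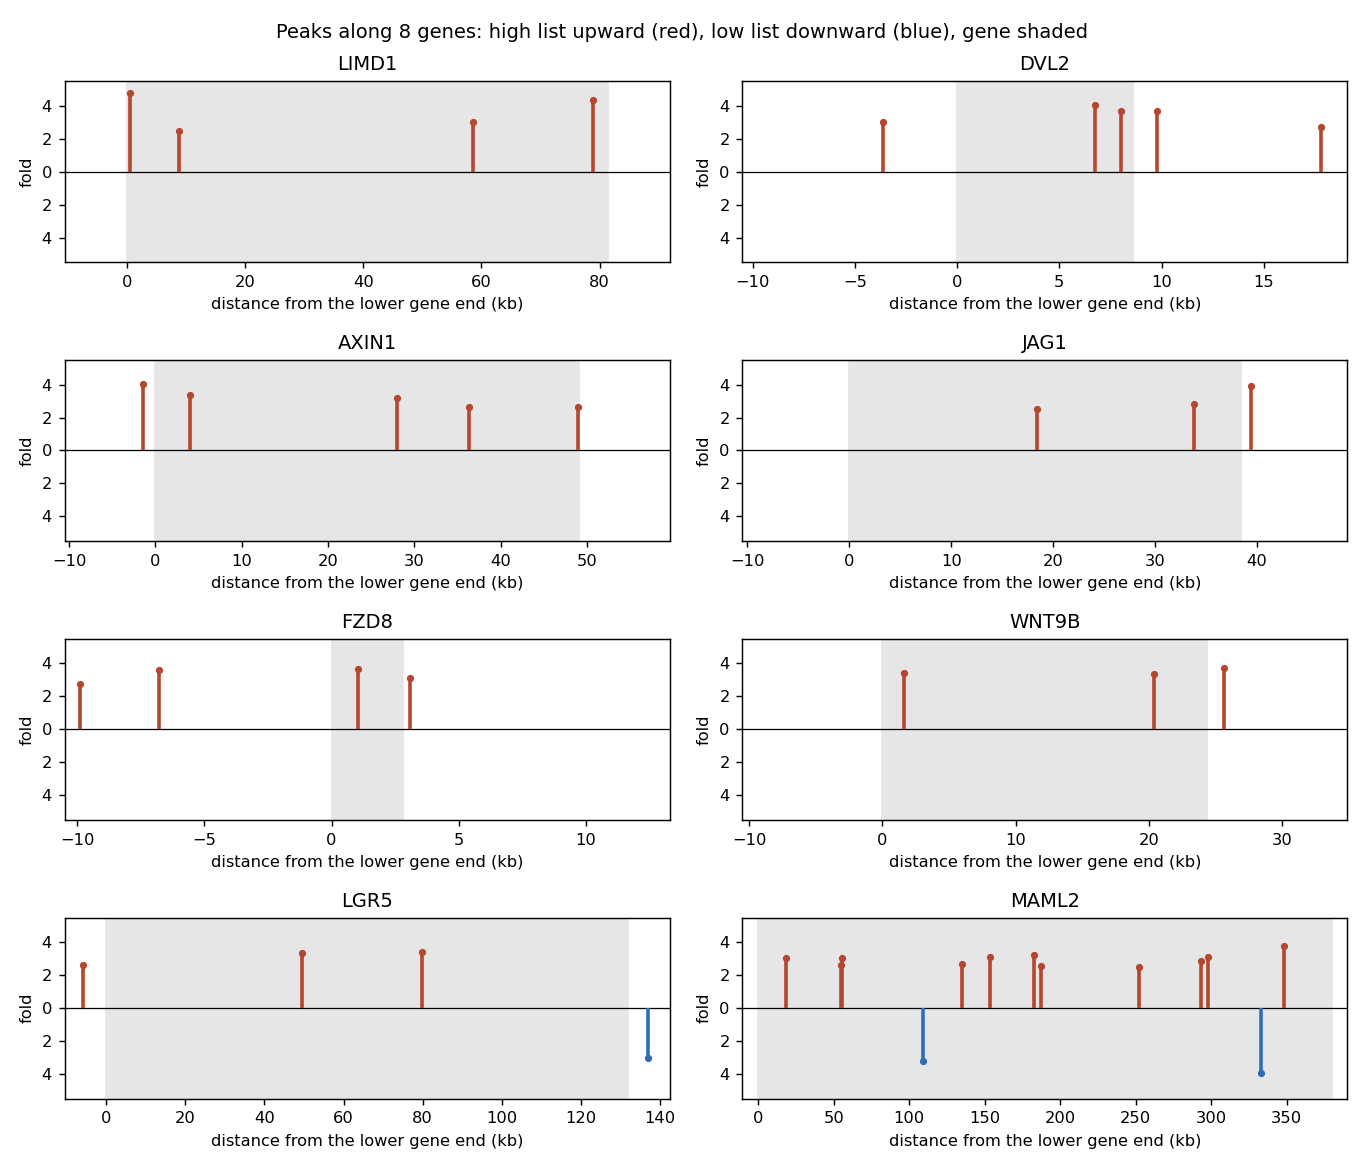
Peaks along LIMD1, DVL2, AXIN1, JAG1, FZD8, WNT9B, LGR5 and MAML2, by the distance of the peak centre from the lower gene end in kb (x axis) and fold at the summit (y axis), high list upward and low list downward, gene shaded. LIMD1 has its 2 strongest peaks near its opposite ends, and the 2 low-list peaks of MAML2 lie between high-list peaks.

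Of the effectors, TEAD1 had a gene-end peak of fold 3.58 (q 0.139) 920 bp inside its upper end, which is also an end of LOC102164222. YAP1 had 2.49 (q 0.503) and WWTR1, which encodes TAZ, 2.34 (q 0.548), with summits 155 and 182 bp outside a gene end and on 7 and 8 fragments. The YAP1 peak also lies at an end of LOC102157672. TEAD2 had a peak of 3.22 that lay 7543 bp outside the gene and inside CD37, and TEAD4 a body peak of 2.60. TEAD3 had a low-list peak of 3.58, 9530 bp outside the gene and at an end of RPL10A, and no high-list peak. WWTR1 also had a low-list body peak of 3.33.

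Of the kinases and adaptors, STK4 alone had a high-list gene-end peak (18.4% of all genes), of fold 2.08 (q 0.711). STK4 also had a low-list body peak of 3.64. STK3 had a body peak of 3.69 (q 0.139) and a low-list peak of 2.91 outside the gene. LATS2 had body peaks of 3.41 and 3.20. The LATS coactivator genes MOB1B and MOB1A had top folds of 3.58 and 3.36, the latter outside the gene. LATS1 and SAV1 had no peak within 10 kb.

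Both lists held a nearby peak at 12 pathway genes, or 14.3% against 16.6% of all genes. High-list peaks alone stood near 49 genes (58.3%, background 46.2%), low-list peaks alone near FZD9, TCF7L2, TEAD3 and WNT10A (4.76%, background 5.42%), and 19 genes had neither (22.6%, background 31.8%). Of the 37 genes with a nearby high-list peak but none at an end, 26 had a fold of 3 or more. A further 9, among them CTNNB1, NOTCH2, NOTCH3, RNF43 and TEAD4, had top folds of 2.08 to 2.96 and no low-list peak. With gene-end peaks included, 42 pathway genes had a nearby high-list peak of fold 3 or more (50%, background 40.4%).

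Gene length moves with body peaks and was therefore set beside the counts. Of all named coding genes under 10 kb, 21.5% had a high-list body peak, and of those of 200 kb and over 87.2% did. Pathway genes had a median length of 30.8 kb against 25.6 kb for all. Of the 19 under 10 kb, 12 had a high-list body peak and 9 a gene-end peak (47.4%, background 20.2%). These 9 were of the frizzled, HES, DLL and DVL families. Of the 36 of 10 to 50 kb, 13 had a body peak (36.1%, background 42%) and 6 a gene-end peak (16.7%, background 18.7%). Of the 22 of 50 to 200 kb, 20 had a body peak (90.9%, background 63.2%) and 8 a gene-end peak (36.4%, background 17.6%). Of the 7 of 200 kb and over, 6 had a body peak (85.7%, background 87.2%) and 1 a gene-end peak (14.3%, background 13.4%). The shares thus stood above background under 10 kb and at 50 to 200 kb, and near it or under it in the other classes. Low-list body peaks lay in 2 of 19 (background 3.41%), 0 of 36 (10.4%), 6 of 22 (24.3%) and 3 of 7 (51.9%) by rising length. Low-list gene-end peaks, absent from the pathway genes in each class, stood at 3.24%, 3.84%, 3.74% and 2.82% of all genes. Per Mb of gene body, pathway genes held 22.0 high-list peaks, against 15.4 at the rate of all coding genes of the same chromosomes. In the low list they held 2.26 against 3.15, on 12 peaks. Base composition was not compared here.

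**Figure D4:**
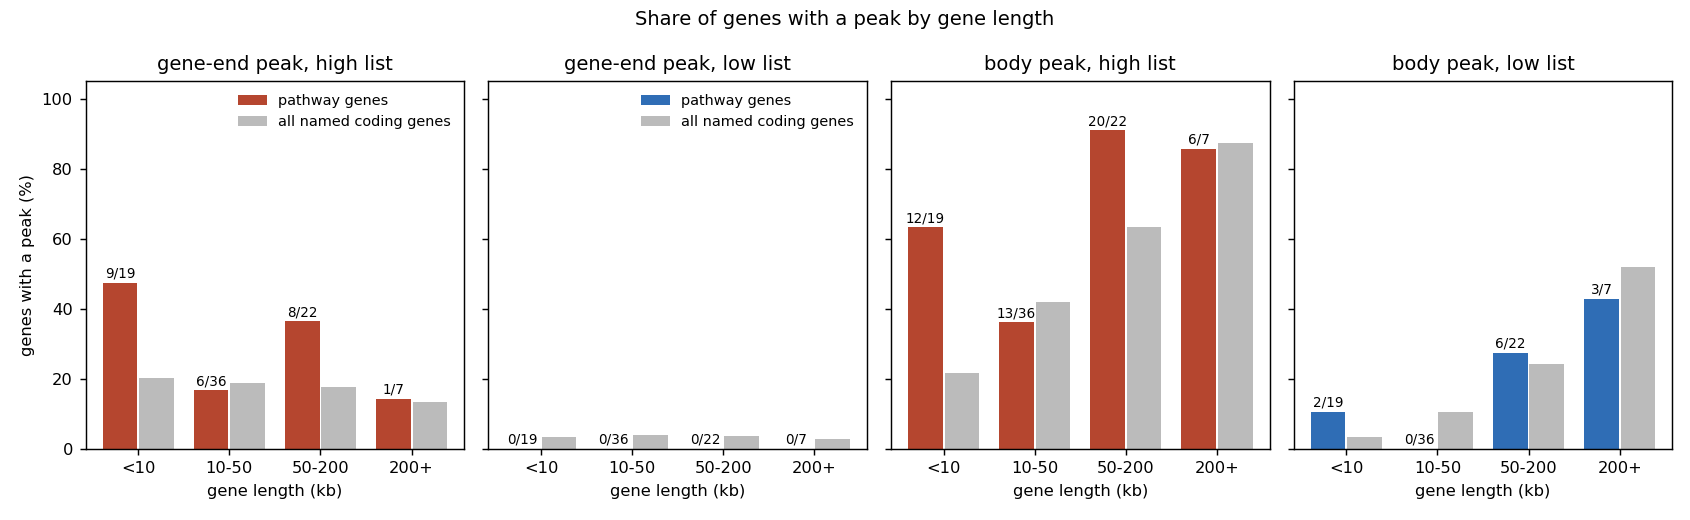
Share of genes with a peak (y axis, percent) in 4 classes of gene length in kb (x axis), pathway genes in colour with their counts above and all named coding genes in grey, for gene-end and body peaks of each list. The high-list body share of all genes climbs from 21.5% to 87.2% with length, and no pathway gene of any class has a low-list gene-end peak.

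Since a missing peak is not a measured absence, each count was set against the fewest fragments the other library would have needed for a call over the same expected number. Of the 26 high-list gene-end peaks, 17 had more fragments than the low library would have needed, 6 had exactly that number and 3 (STK4, HES2 and RSPO4) had fewer. LIMD1 was the one whose 95% interval lay wholly above the low library's need of 7. For JAG1 the need was also 7, within its interval of 6.20 to 21.0, and for HES1 it was 10, equal to its count. Among all 159 nearby high-list peaks the LIMD1 peak was again the one to stand above the need. Of the 18 low-list peaks, that of MAML2 with 12 fragments (interval 6.20 to 21.0) did so against the high library's need of 6. That margin is narrow and depends on the scale used. The 12 fragments are unscaled, while the 1.94 expected there was solved with the low library's fragments scaled by 0.8806. At every other peak near these genes the interval reached below the need of the other library. The fragments of a library at places where it had no peak are not in its list. These counts against the need were not made over all listed peaks, so how usual they are was not tested.

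**Figure D5:**
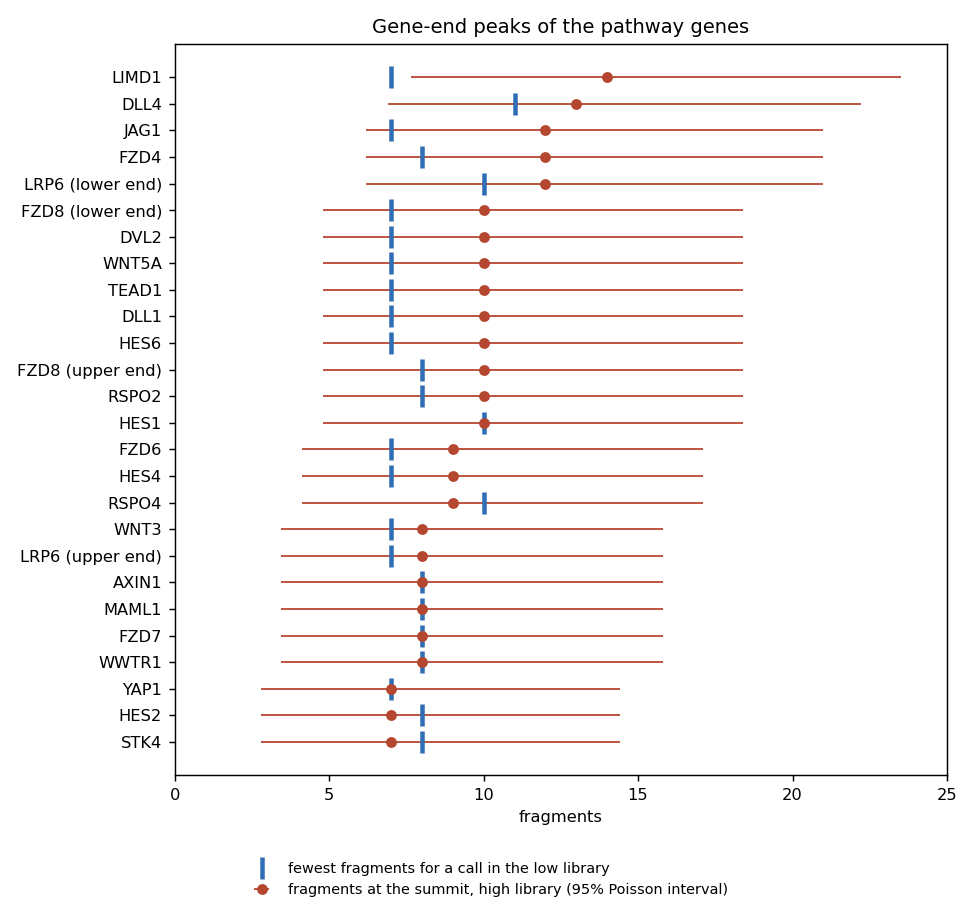
Fragments at the summit of the 26 high-list gene-end peaks (x axis), with exact Poisson 95% intervals as lines and the fewest fragments needed for a call in the low library as blue bars. The interval of LIMD1, 7.65 to 23.5, begins to the right of its bar at 7, and every other interval includes its bar.

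Other genes of the 3 pathways were taken from lists of 113 symbols, of which 109 were found on the chromosomes, CCN1 and CCN2 under their older symbols CYR61 and CTGF. A high-list gene-end peak lay at 9 of 41 further WNT genes, 10 of 33 Notch genes and 11 of 35 Hippo genes, or 22.0%, 30.3% and 31.4% against 18.4% of all genes. In the WNT list BTRC, the F-box protein that marks beta-catenin for destruction, led with a fold of 4.64 (q 0.0106). It was followed by the corepressor gene CTBP1 with 3.61 and PYGO2, a cofactor of beta-catenin, with 3.13. In the Notch list POGLUT1, which adds glucose to Notch receptors, led with 4.43 (q 0.0177), then SPEN, a corepressor of RBPJ, with 3.61 and DTX3L with 3.52, whose peak also lies at an end of PARP9. In the Hippo list AMOTL2 and MAP4K1, with 3.09 each, and RASSF5 with 3.03 led, none with a q under 0.05. The MAP4K1 peak also lies at an end of EIF3K and that of RASSF5 at an end of LOC106508612. CYR61, a YAP target, had 3.02 (q 0.33), a value named after it was seen.

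Away from gene ends, peaks with a q under 0.05 lay, among others, near KREMEN2 (3.90) and NKD1 (4.36) of the WNT list, DTX2 (3.78) and NCSTN (4.36) of the Notch list, and STK38L (4.70) of the Hippo list. NCSTN encodes a subunit of gamma-secretase, which cuts Notch. In the low list, gene-end peaks lay at NCSTN (3.08, shared with COPA), RASSF2 (3.27), WWC2 (3.08) and AMOTL2 (2.31), all with a q of 1. That is 0 of 41 WNT, 1 of 33 Notch and 3 of 35 Hippo genes, against 3.59% of all genes. The Hippo share of 8.57% rests on 3 peaks, and the WNT and Notch shares lay under 3.59%. AMOTL2 had end peaks in both lists that did not overlap. BCL9L, a cofactor of beta-catenin, had overlapping peaks of both lists outside the gene, with folds of 2.34 (high) and 2.82 (low).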

How the data were processed

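H4K12la was measured by chromatin immunoprecipitation and sequencing in 2 immunoprecipitated libraries, and 1 peak list for each was used. MACS2 2.1.0, Bowtie 1.1.2, Trimmomatic 0.33 and bcl2fastq 2.17 are named in the submitters' processing notes, with the caller's cutoff not given in the sources used here. The fold (a ratio over the local background), the −log10 p-value and the −log10 q-value of each peak are deposited by the authors, and the deposited score, which repeats the p-value, was not used. The notes name hg38 and Sscrofa11.1; chromosome 1 peaks ran to near the last annotated pig gene, so Sscrofa11.1 was used.

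Gene positions came from RefSeq for Sscrofa11.1. Overlap meant 1 bp or more. Fragment numbers were solved from fold and p-value for 99.99% of high-list and 99.98% of low-list peaks, within 0.002 in −log10 p. The step was tested on data simulated with the same formulas for fold and p-value. That test could not show whether the caller's own values follow these formulas. The need of the other library assumes a cutoff of p at 0.01, since the largest p was 0.00989 in both lists. A scaling of 0.8806 for the pileup (the stacked fragments) of the low library was inferred, as the value that best fitted fold and p-value in a draw of its peaks. Intervals are exact Poisson intervals at 95% for counting error. Python 3.11.15, numpy 2.4.6, pandas 2.3.3, scipy 1.17.1 and matplotlib 3.10.9 were used.

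Groups came from the sample titles. With 1 library a group no test was made. The pathway genes and lists were chosen with earlier results of these data known. The naming rule took every gene with a gene-end peak, those with another peak of fold 3 or more or with peaks in both lists, and, of the other pathway genes, up to 3 a list by fold, all with q under 0.05 and all with a low-list gene-end peak. One gene that the rule names is not reported here. The planned use of gene starts and promoter motifs was not run, because strand and sequence were not used here.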

Additional observations from a re-analysis of the deposited data

How the results depend on the processing

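No paired analysis was possible because a group holds a single H4K12la library. The lists shared no overlapping peak near these genes under all 3 definitions run. The backgrounds were also low, at 1.18% for any overlap, 0.828% for 50% of the shorter peak and 1.36% for summits within 500 bp. The low-list gene-end count stayed at 0 except with a 3 kb window, which gave 2 genes (background 6.67%). Stricter peaks shortened the high-list counts: gene ends held 1 gene at q under 0.05 (1.19%, background 0.816%), 12 at a fold of 3 or more (14.3%, background 9.25%), 1 at a fold of 4 or more (1.19%, background 0.994%) and 9 when the high list was cut to the length of the low list (10.7%, background 5.19%). Body counts under these 4 settings were 2 (2.38%, background 2.16%), 30 (35.7%, background 27.8%), 2 (2.38%, background 2.93%) and 22 (26.2%, background 16.1%). Nearby counts were 3 (3.57%, background 3.6%) at q under 0.05, 4 (4.76%, background 4.65%) at a fold of 4 or more and 30 (35.7%, background 24.1%) at equal list length. The shares were thus near or under the background at q under 0.05 and at a fold of 4 or more. In the low list, bodies held 0 genes at q under 0.05 (background 0.0307%), 5 at a fold of 3 or more (5.95%, background 8.17%) and 0 at 4 or more (background 0.233%), and nearby peaks 0 (background 0.0613%), 8 (9.52%, background 11.7%) and 0 (background 0.337%). With 50 kb beside the gene, 36 genes had a low-list peak (42.9%, background 41.4%). Counting summits, or peaks with 50% of their width in the window, kept every count within 1.5 times. The use of the gene start alone was not run. At a median of 9 or 10 fragments a peak, depth limits what single peaks can show.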
